A study of Mus musculus with 6 samples.

Results

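Chemokine receptors are membrane proteins that let leukocytes follow gradients of chemokines, small secreted proteins released at sites of injury, infection or homing. Most of them signal through inhibitory G proteins, and each cell type carries its own set, so that the set decides which signals can call the cell. Macrophages carry receptors for inflammatory chemokines and for signals that hold cells in the bone marrow or in tissues, and bacterial products can change the mRNAs of several of them. The 7 genes described here are Cxcr4, Ccr1, Ccr2, Ccr3, Ccr7, Ccrl2 and Cx3cr1. They were picked with earlier results of these data known and taken by gene symbol from a table of 54532 mouse genes, where each symbol matched a single row.

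Gene expression was measured by sequencing of polyadenylated RNA in primary bone-marrow-derived macrophages (BMDMs) of C57BL/6 mice, cells grown out of bone marrow in medium conditioned by L929 fibroblasts. The libraries formed 3 groups of 2: untreated cells, cells given lipopolysaccharide (LPS, a component of the bacterial outer membrane) at 100 ng/ml for 2 h, and cells given the antidiabetic drug metformin at 5 mM for 6 h and then LPS at 100 ng/ml for 2 h (Met + LPS). Metformin without LPS was not among the groups analysed here, so an effect of metformin on resting cells cannot be told apart from an effect on the response to LPS. The 2 libraries of a group came from duplicate cultures, and p-values therefore measure only the spread between these samples, which may be technical.

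Values are TPM, the usual measure of transcript abundance scaled for gene length and library size. The libraries held 25457014 to 30762753 reads on genes, as recovered from the TPM values and gene lengths. All 10 macrophage markers checked, among them Adgre1 and Csf1r, stood at 1 TPM or more in every library, and their summed level ranged from 50031 to 52086 TPM in untreated cells, from 41651 to 42259 TPM after LPS and from 34253 to 34305 TPM after Met + LPS. Lyz2 alone held 33981 to 35844, 26696 to 26974 and 21203 to 21381 TPM of these sums, and the other 9 markers together 16050 to 16242, 14954 to 15285 and 12924 to 13050 TPM, with Cd14, Spi1 and Adgre1 at higher values after LPS than in untreated cells. RNA was taken from whole cultures, so fewer cells of a type and less RNA per cell cannot be told apart. All 7 receptors passed the filter of 1 TPM in at least 2 libraries, as did 12755 genes in all. Groups were compared with limma on log2(TPM + 1), a scale that understates the change of low genes, with Benjamini-Hochberg adjustment over all tested genes. A gene is said to rise or fall where its adjusted p was below 0.01 and its log2 fold change was at least 2 in size against untreated cells, or at least 0.7 between Met + LPS and LPS.

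The receptor set of resting macrophages was dominated by Cxcr4 and that of LPS-treated macrophages by Ccrl2. Cxcr4, the receptor of CXCL12 that holds cells in the bone marrow, made up 88.7% and 88.1% of the summed TPM of the 7 receptors in the 2 untreated libraries, 1.63% and 1.95% after LPS, and 4.66% and 4.0% after Met + LPS. Ccrl2, an atypical receptor that binds the attractant chemerin and is not known to signal through G proteins, made up 3.86% and 4.18% of the sum in untreated cells, 91.6% and 91.2% after LPS, and 93.7% and 94.2% after Met + LPS. The summed level of the 7 genes went from 531 and 515 TPM in untreated cells to 748 and 754 TPM after LPS and to 2041 and 1887 TPM after Met + LPS. The other 5 receptors together held 39.5 and 39.7 TPM in untreated cells, 50.4 and 51.4 TPM after LPS, and 34.0 and 34.3 TPM after Met + LPS. Their sum thus moved far less than either dominant receptor.

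**Figure D1:**
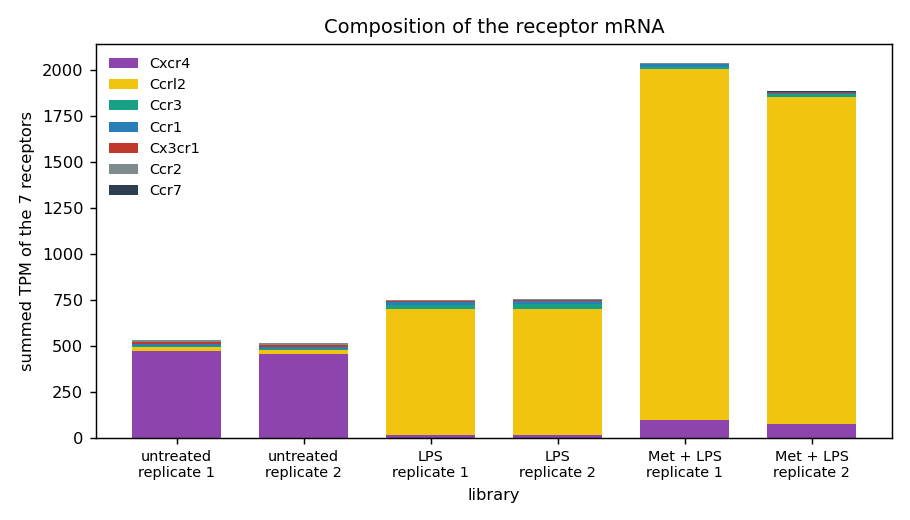
Summed TPM of the 7 receptors in each library (bars from 0), with 1 colour for each gene. Cxcr4 fills most of both untreated bars and Ccrl2 most of the other 4, and the bars grow from 531 and 515 TPM in untreated cells to 2041 and 1887 TPM after Met + LPS.

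The sequences just before the transcription start sites of the called receptors show where simple binding motifs occur, and are given for the gene that fell most with LPS, the gene that rose most, and Ccr3. RefSeq (GRCm38.p6) gave windows for 6 of the 7 genes, and 250 bases before each start site were searched on both strands for 9 motifs. The 3 windows are written 5′ to 3′ on the strand of the gene, with motif matches in capitals, and lie at chr1:128592300-128592549 (minus strand) for Cxcr4, chr9:111057519-111057768 (minus strand) for the most upstream of the 3 start sites of Ccrl2, and chr9:124021721-124021970 (plus strand) for Ccr3.
Cxcr4: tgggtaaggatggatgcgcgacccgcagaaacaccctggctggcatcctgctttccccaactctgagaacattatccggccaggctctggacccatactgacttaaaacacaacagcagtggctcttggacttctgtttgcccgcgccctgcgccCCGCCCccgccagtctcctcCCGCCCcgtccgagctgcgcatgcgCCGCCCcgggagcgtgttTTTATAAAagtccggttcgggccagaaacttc
Ccrl2: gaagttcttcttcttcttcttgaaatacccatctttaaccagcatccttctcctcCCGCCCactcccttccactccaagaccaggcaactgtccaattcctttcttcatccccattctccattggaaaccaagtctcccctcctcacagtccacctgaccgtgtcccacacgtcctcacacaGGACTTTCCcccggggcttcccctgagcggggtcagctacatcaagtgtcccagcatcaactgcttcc
Ccr3: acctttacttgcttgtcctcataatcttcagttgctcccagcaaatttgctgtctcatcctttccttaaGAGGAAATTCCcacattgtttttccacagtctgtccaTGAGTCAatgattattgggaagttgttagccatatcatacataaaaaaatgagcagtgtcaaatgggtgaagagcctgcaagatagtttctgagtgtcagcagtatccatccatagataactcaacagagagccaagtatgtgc

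In the Ccrl2 window the stretch GGACTTTCC, 68 to 60 bases before the start site, matched the NF-kappaB motif GGNNTTTCC, which 4.93% of 32851 windows of this length held. NF-kappaB is the transcription factor family that LPS signalling activates. The Ccr3 window held the same motif on the opposite strand 179 to 171 bases before the start site, where it shared bases with GAGGAA, the core motif of the macrophage factor PU.1 (23.3% of windows), at 181 to 176. A match to the AP-1 motif TGANTCA (6.75% of windows) lay 144 to 138 bases before the same start site. The Cxcr4 window held neither the NF-kappaB nor the AP-1 motif, but 3 copies of the GC box GGGCGG on the opposite strand (32.7% of windows held at least 1) and the TATA box TATAAA (12.4% of windows), which overlapped itself on both strands 32 to 25 bases before the start site. The Ccrl2 window also held 1 GC box, 195 to 190 bases before the start site, and neither of its other 2 start sites had a match to any motif. Of the windows not printed, that of Ccr1 held GAGGAA at 129 to 124, that of Ccr2 held the interferon response motif GAAANNGAA (7.13% of windows) on the opposite strand at 86 to 78, and that of Cx3cr1 held none. A second NF-kappaB motif, GGNATTCCC (0.840% of windows), the C/EBP motif TTGCGCAA (0.164%) and the E-box CACGTG (6.02%) matched no window of these genes. These matches are descriptions of letters, and binding was not measured.

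LPS changed the extremes of the receptor set in opposite directions within 2 h. Cxcr4 fell and Ccrl2 rose, and the other 5 receptors did not reach the cut-offs, although 4 of them had adjusted p below 0.01. Of all tested genes, 6.08% reached both cut-offs in this comparison (3.72% higher and 2.37% lower), against 2 of the 7 receptors. The median tested gene stood 0.48 lower on the log2 scale after LPS. Median-ratio rescaling of the libraries, which removes such a shift by design, brought it to -0.01. Whether the shift came from scaling or from a broad fall in mRNA was not tested. Several values against untreated cells are therefore also given relative to the median tested gene or after rescaling.

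Cxcr4 (ENSMUSG00000045382, chromosome 1, 128588199 to 128592293, minus strand, GRCm38) stood at 471 and 454 TPM in the untreated libraries, at 12.2 and 14.7 TPM after LPS, and at 95.2 and 75.5 TPM after Met + LPS. The 3 groups were far apart and did not overlap: Cxcr4 was high in resting cells, low after LPS, and intermediate when metformin had been given first. Its mean was 462 ± 12.2 TPM (SD, n = 2) in untreated cells and 13.5 ± 1.77 TPM (SD, n = 2) after LPS, 34.4-fold lower, with a log2 fold change of -5.01 (SE 0.12, limma adjusted p = 1.57e-07). Of all tested genes, 0.00784% had a lower log2 fold change. By level, it went from place 261 and 269 among all genes in the untreated libraries to 6398 and 5898 after LPS.

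Ccrl2 (ENSMUSG00000043953, chromosome 9, 111054486 to 111057519, minus strand) stood at 20.5 and 21.5 TPM in the untreated libraries, at 685 and 688 TPM after LPS, and at 1912 and 1777 TPM after Met + LPS. No libraries of different groups overlapped, and the order was the reverse of that of Cxcr4 between untreated and LPS-treated cells. The mean of 21.0 ± 0.738 TPM (SD, n = 2) became 687 ± 2.00 TPM (SD, n = 2) with LPS, 32.7-fold higher, with a log2 fold change of 4.97 (SE 0.04, limma adjusted p = 2.62e-09). The gene moved from place 5908 and 5737 among all genes to 193 and 192.

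**Figure D2:**
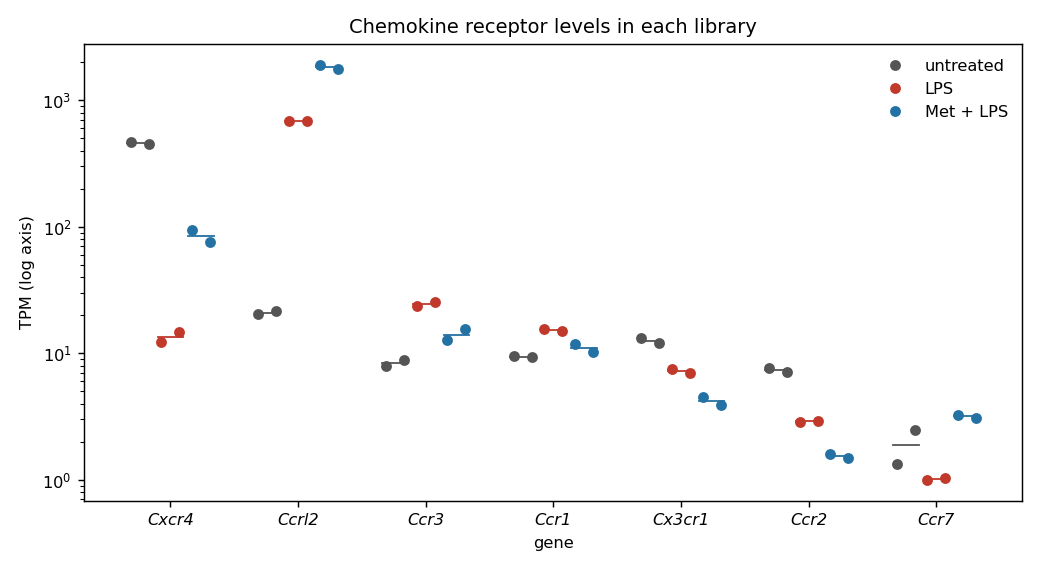
TPM of each receptor in each library on a log axis; points are libraries, coloured by group, and short lines are group means (n = 2). The untreated and LPS points of Cxcr4 and of Ccrl2 lie more than 30-fold apart, in opposite directions, and the points of the other genes lie closer together.

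Ccr3 and Ccr1, receptors for inflammatory CC chemokines, were higher after LPS without reaching the fold cut-off. Ccr3 (ENSMUSG00000035448, chromosome 9, 124021972 to 124031689, plus strand), known best as the eotaxin receptor of eosinophils, stood at 7.88 and 8.79 TPM in untreated cells, at 23.6 and 25.4 TPM after LPS, and at 12.7 and 15.4 TPM after Met + LPS. All LPS values were above all others, and the Met + LPS values lay between. The difference with LPS was 2.94-fold, or 1.45 on the log2 scale (SE 0.10, limma adjusted p = 1.58e-05), and 1.93 above the median tested gene. Ccr1 (ENSMUSG00000025804, chromosome 9, 123962124 to 123968692, minus strand), which binds CCL3 and CCL5, stood at 9.52 and 9.31 TPM in untreated cells, at 15.4 and 15.1 TPM after LPS, and at 11.9 and 10.3 TPM after Met + LPS. It had the same order of groups as Ccr3 over a smaller range, with a log2 fold change of 0.64 for LPS (SE 0.07, limma adjusted p = 1.95e-04), or 1.13 after median-ratio rescaling.

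Cx3cr1 and Ccr2, which are used to tell apart subsets of blood monocytes, had lower values after LPS, again without reaching the fold cut-off. Ccr2 (ENSMUSG00000049103, chromosome 9, 124101950 to 124113557, plus strand), the receptor of CCL2 that brings monocytes out of the marrow and into inflamed tissue, stood at 7.59 and 7.14 TPM in untreated cells, at 2.86 and 2.94 TPM after LPS, and at 1.6 and 1.49 TPM after Met + LPS. Its values stepped down from group to group without overlap. The log2 fold change with LPS was -1.1 (SE 0.09, limma adjusted p = 3.2e-05), or -0.62 relative to the median tested gene and -0.66 after median-ratio rescaling. Cx3cr1 (ENSMUSG00000052336, chromosome 9, 119901616 to 120069879, minus strand), the receptor of the membrane-bound chemokine fractalkine, stood at 13.2 and 12.0 TPM in untreated cells, at 7.46 and 6.97 TPM after LPS, and at 4.52 and 3.94 TPM after Met + LPS. It followed the same downward order. Its log2 fold change of -0.72 with LPS (SE 0.09, limma adjusted p = 2.42e-04) was -0.24 relative to the median tested gene, and after median-ratio rescaling it was -0.24 with an adjusted p of 0.0469.

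Ccr7, the receptor of CCL19 and CCL21 that leads dendritic cells to lymph nodes, was the least abundant of the 7 in untreated and LPS-treated cells. The gene (ENSMUSG00000037944, chromosome 11, 99144196 to 99155077, minus strand) stood at 1.33 and 2.47 TPM in untreated cells, at 0.996 and 1.04 TPM after LPS, and at 3.28 and 3.08 TPM after Met + LPS. These values rest on 20 and 35 reads, 15 and 15 reads, and 49 and 54 reads. The 95% Poisson interval of an LPS library with 15 reads reached from 8.40 to 24.7 reads, which holds the count of 1 untreated library, and such intervals cover counting error only. The log2 fold change with LPS was -0.49 (SE 0.19, limma adjusted p = 0.0467), or -0.01 relative to the median tested gene.

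Between libraries, none of the 7 receptors overlapped between untreated and LPS-treated cells, with 3 genes higher and 4 lower. Such separation was common with 2 libraries a group: 20.1% of tested genes were higher and 71.5% lower without overlap. With the adjusted p alone, 76.3% of tested genes passed (16.2% higher and 60.1% lower), against 6 of 7 receptors (3 higher and 3 lower).

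Metformin before LPS left Cxcr4, Ccrl2 and Ccr7 higher than LPS alone and Ccr3 lower. Of all tested genes, 8.28% reached both cut-offs in this comparison, 4.19% higher and 4.09% lower, against 4 of the 7 receptors, 3 higher and 1 lower. The median tested gene differed by -0.03 on the log2 scale. All 7 receptors had an adjusted p below 0.01, as had 32.6% of tested genes, and none overlapped between the 2 groups, as 33.8% of tested genes were higher and 40% lower without overlap. The comparisons with untreated cells and between the treated groups share the LPS libraries, so their values are set side by side and are not independent.

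Cxcr4 rose 6.34-fold from LPS to Met + LPS, to a mean of 85.3 ± 13.9 TPM (SD, n = 2), with a log2 fold change of 2.57 (SE 0.12, limma adjusted p = 2.19e-05). Of all tested genes, 99.9% had a lower log2 fold change. The level after Met + LPS was 18.5% of the untreated mean, against 2.91% after LPS alone. For Cxcr4, then, the value moved back towards the resting level without reaching it. Against untreated cells the log2 fold change was -2.43 (SE 0.12, limma adjusted p = 3.71e-06), which became -1.88, short of the cut-off, after median-ratio rescaling.

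Ccrl2 moved the other way relative to its resting level. It rose 2.69-fold from LPS to Met + LPS, to 1844 ± 95 TPM (SD, n = 2), with a log2 fold change of 1.42 (SE 0.04, limma adjusted p = 8.58e-06), so the value went further from that of untreated cells. The mean after Met + LPS was 87.7-fold that of untreated cells, with a log2 fold change of 6.39 (SE 0.04, limma adjusted p = 1.42e-09), and the gene stood at places 62 and 65 among all genes. Its values rested on 405 and 401 reads in the untreated libraries and on 37542 and 40866 reads in the Met + LPS libraries.

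Ccr7 rose with a log2 fold change of 1.05 (SE 0.19, limma adjusted p = 0.00464), 3.13-fold in TPM. The call was lost on leaving out any 1 of the 4 libraries compared (LPS replicate 1 or 2, Met + LPS replicate 1 or 2), with limma adjusted p from 0.0258 to 0.0332 and log2 fold changes from 1.02 to 1.08, and also with no filter on low values (adjusted p = 0.026) or no mean-variance trend (adjusted p = 0.0109). Both Met + LPS values were above both untreated values as well, with a log2 fold change of 0.56 between those groups (SE 0.19, limma adjusted p = 0.0313).

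Ccr3 fell with a log2 fold change of -0.76 (SE 0.10, limma adjusted p = 0.00114), close to the cut-off, to a mean of 14.1 ± 1.91 TPM (SD, n = 2) from 24.5 ± 1.22 TPM (SD, n = 2). The call was lost without LPS replicate 2 (-0.71, adjusted p = 0.0113) and without Met + LPS replicate 1 (-0.63, adjusted p = 0.00558). Just outside the cut-off stood Cx3cr1, with a log2 fold change of -0.65 (SE 0.09, limma adjusted p = 0.0013), and Ccr2, with -0.61 (SE 0.09, limma adjusted p = 0.00169). Both passed with a pseudocount of 0.1 TPM in place of 1 (-0.76 and -0.87) and with limma voom on the recovered reads (-0.78 and -0.91), and Cx3cr1 also without Met + LPS replicate 1 (-0.73). Ccr1 was lower by less, with a log2 fold change of -0.43 (SE 0.07, limma adjusted p = 0.00388).

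**Figure D3:**
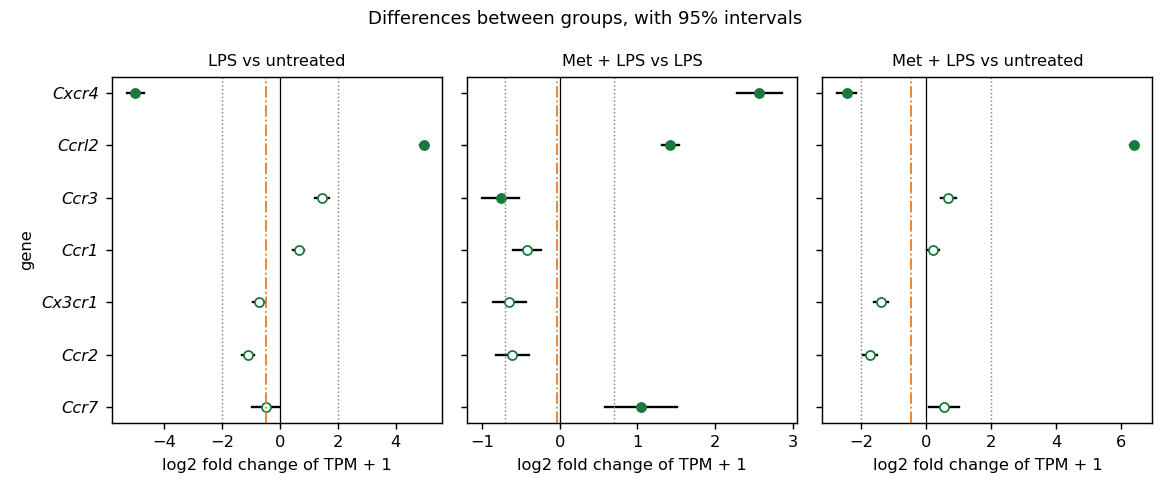
Log2 fold change of TPM + 1 for each receptor in the 3 comparisons, with 95% intervals from limma; filled points reached both cut-offs, dotted lines mark the fold cut-off, and the dash-dotted line marks the median tested gene. Cxcr4 lies at -5.01, 2.57 and -2.43 and Ccrl2 at 4.97, 1.42 and 6.39.

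Against untreated cells, the same 2 receptors, Cxcr4 and Ccrl2, reached the cut-offs after Met + LPS as after LPS, where 5.35% of all tested genes did (3.18% higher and 2.16% lower). With the adjusted p alone, 5 receptors passed, 2 higher and 3 lower, against 75.1% of tested genes (16.3% higher and 58.8% lower). All 7 were without overlap, 4 higher and 3 lower, as 21.7% of tested genes were higher and 69.1% lower. Ccr2 had a log2 fold change of -1.72 (SE 0.09, limma adjusted p = 4.26e-06), short of the fold cut-off. The value passed it at -2.18 with a pseudocount of 0.1 TPM and at -2.23 with voom on recovered reads. After median-ratio rescaling it was -1.28, further from the cut-off. In TPM the Ccr2 mean after Met + LPS was 21.0% of the untreated mean, against 39.3% after LPS. Cx3cr1 had a log2 fold change of -1.38 (SE 0.09, limma adjusted p = 1.1e-05), or -0.89 after rescaling, with 33.6% of the untreated mean left against 57.4% after LPS. Ccr3 and Ccr1 stayed above untreated levels, at 169% and 118% of the untreated mean, with log2 fold changes of 0.69 (SE 0.10, limma adjusted p = 5.85e-04) and 0.22 (SE 0.07, limma adjusted p = 0.0318). After rescaling these were 1.18 and 0.71, with limma adjusted p of 5.88e-05 and 1.63e-04.

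The order of the receptors by level changed with treatment. In untreated cells it was Cxcr4, Ccrl2, Cx3cr1, Ccr1, Ccr3, Ccr2 and Ccr7. After LPS it was Ccrl2, Ccr3, Ccr1, Cxcr4, Cx3cr1, Ccr2 and Ccr7, and after Met + LPS Ccrl2, Cxcr4, Ccr3, Ccr1, Cx3cr1, Ccr7 and Ccr2. No neighbours in these orders overlapped between their 2 libraries. Counting intervals of the libraries overlapped for 3 of 6 neighbouring pairs in untreated cells (Cx3cr1 and Ccr1, Ccr1 and Ccr3, Ccr3 and Ccr2), for 1 of 6 after LPS (Ccr1 and Cxcr4) and for 2 of 6 after Met + LPS (Ccr3 and Ccr1, Cx3cr1 and Ccr7), so these places are not resolved by depth.

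Ccr1, Ccr3 and Ccr2 lie near each other on chromosome 9, with Ccr1l1 between Ccr1 and Ccr3. From the lower-coordinate end of Ccr1, the genes begin at 15.1 kb (Ccr1l1), 59.8 kb (Ccr3) and 139.8 kb (Ccr2). The neighbours did not move as one: with LPS, Ccr1 and Ccr3 had higher values and Ccr2 had lower ones. From LPS to Met + LPS, all 3 had lower values, and Ccr3 alone of them reached the cut-offs. Ccrl2 and Cx3cr1 lie on the same chromosome but far from these genes, at -12907.6 and -4060.5 kb from the same end of Ccr1. Reads could be shared between close copies: 96.5% of the 31-base words of the Ccr2 exons occurred in no other gene, and the share of own words was 96.7% for Cx3cr1 and 99.4% or more for the other 5 receptors. The exons of Cx3cr1 overlapped an antisense gene over 78 bases, and those of the other receptors overlapped no other gene.

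**Figure D4:**
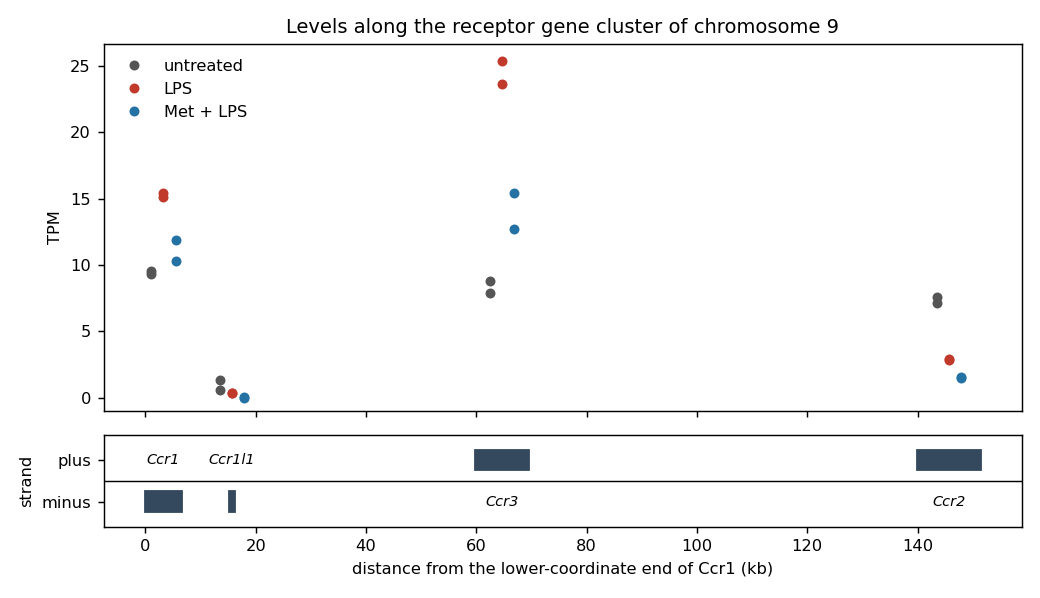
TPM of 4 receptor genes that lie near each other on chromosome 9 (top; points are libraries, coloured by group and set side by side at the middle of each gene) above their positions and strands in kb from the lower-coordinate end of Ccr1. Ccr1 and Ccr3 are highest after LPS, while Ccr2 and Ccr1l1 are highest in untreated cells. Ccr1l1 did not pass the filter on low values and rests on 12 and 5 reads in untreated cells, 3 and 3 after LPS, and 0 and 1 after Met + LPS.

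Of 19 further chemokine receptors listed, 3 passed the filter on low values and 6 were listed at 0 in every library. A 0 in this table can be a lost count, since some mitochondrial mRNAs were also listed at 0 throughout. Cxcr3, a receptor of interferon-induced chemokines, had a log2 fold change of -0.82 with LPS (SE 0.11, limma adjusted p = 3.21e-04), short of the fold cut-off. From LPS to Met + LPS it fell from 5.85 ± 0.120 to 2.62 ± 0.292 TPM (SD, n = 2 each; log2 fold change -0.92, SE 0.11, limma adjusted p = 6.63e-04). The 7 receptors described here made up 90.8% to 98.8% of the summed TPM of all 26 receptors.

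The ligands of these receptors were mostly induced by LPS. Of 18 ligand genes listed, 12 passed the filter, 10 rose and none fell with LPS. By the same cut-offs, 3.72% of all tested genes rose and 2.37% fell. Ccl8, Ccl12 and Ccl24 were below 1 TPM in both untreated libraries and passed the filter only through treated libraries. A fall of the size of the cut-off was thus not possible for them. The median log2 fold change of the 12 genes, these included, was 4.54 against -0.48 over all tested genes. Ccl2, Ccl7 and Ccl12, ligands of Ccr2, rose by 8.17, 8.70 and 7.42 on the log2 scale, and Ccl5, a ligand of Ccr1 and Ccr3, by 8.33 (limma adjusted p of 1.11e-06 or less for all). Ccr2 thus had lower values where the mRNAs of its ligands were higher: Ccl2 went from 12.9 ± 1.38 to 3981 ± 140 TPM (SD, n = 2 each). The Cx3cr1 ligand Cx3cl1 rose from 1.58 ± 0.421 to 40.1 ± 0.518 TPM (SD, n = 2 each).

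Between LPS and Met + LPS, no listed ligand rose and 3 fell, with a median log2 fold change of -0.20 over the 12. By the same cut-offs, 4.19% of all tested genes rose and 4.09% fell. Ccl24, an eotaxin and ligand of Ccr3, fell from 15.9 ± 0.0387 to 2.75 ± 0.426 TPM (SD, n = 2 each; log2 fold change -2.18, limma adjusted p = 2.98e-05). Ccl8 and Ccl9, the latter a ligand of Ccr1, had log2 fold changes of -1.29 and -0.87 (limma adjusted p = 0.00185 and 1.57e-05). Ccl2 and Ccl7 differed by 0.26 and -0.04 (limma adjusted p = 0.0272 and 0.923), and Ccl3 and Ccl4 by 0.53 and 0.44 (limma adjusted p = 1.55e-04 and 3.14e-04), short of the fold cut-off. Cxcl12, the ligand of Cxcr4, was not tested, at 0.0854 to 0.502 TPM over the 6 libraries, and Mif, which also binds Cxcr4, had log2 fold changes of -0.40 with LPS and 0.23 from LPS to Met + LPS (limma adjusted p = 0.00162 and 0.0317). The Ccr7 ligand genes Ccl19 and Ccl21a were listed at 0 in every library.

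**Figure D5:**
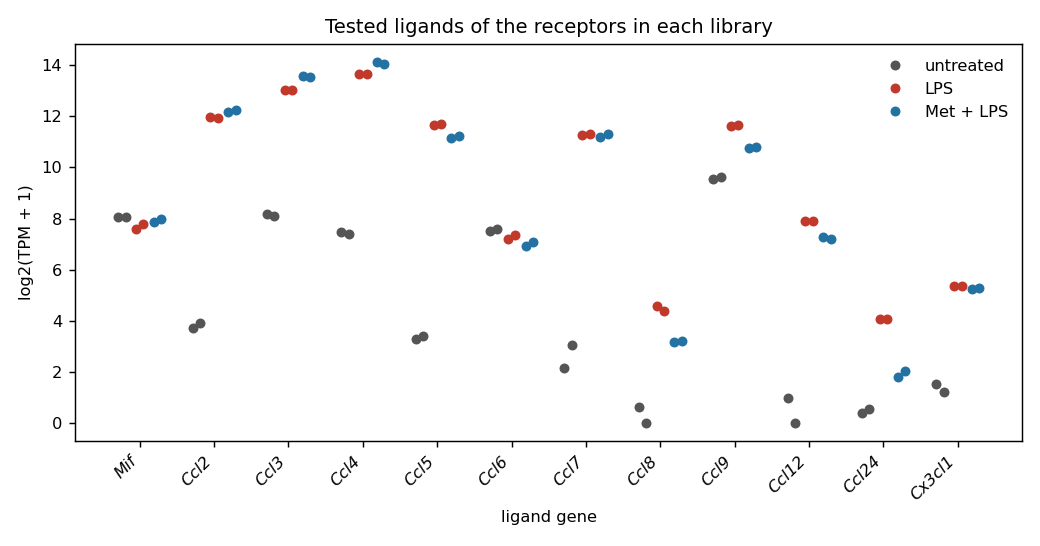
Log2(TPM + 1) of the 12 tested ligand genes; points are libraries, coloured by group. The untreated points of 10 ligands lie below both treated groups, Mif and Ccl6 excepted, and Ccl24 is lower in Met + LPS than in LPS, at a mean of 2.75 against 15.9 TPM.

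Of 30 genes for G protein subunits, receptor kinases, arrestins, regulators of G protein signalling (RGS) and downstream factors, 29 were tested. With LPS 1 of them rose, Rgs16 (log2 fold change 3.23, SE 0.12, limma adjusted p = 1.21e-06), and none fell. By the same cut-offs, 3.72% of all tested genes rose and 2.37% fell. Rgs16 stood at 0.562 and 0.776 TPM in the untreated libraries and passed the filter only through treated libraries. From LPS to Met + LPS, Rgs1, which shortens G protein signalling in leukocytes, rose from 90.2 ± 6.99 to 171 ± 4.05 TPM (SD, n = 2 each; log2 fold change 0.92, limma adjusted p = 2.11e-04), and the G protein subunit gene Gnb4 fell by 0.73 on the log2 scale (limma adjusted p = 2.31e-04). Between the treated groups, 4.19% of all tested genes rose and 4.09% fell. By the adjusted p alone, 6 of the 29 were higher and 18 lower with LPS, and 3 were higher and 13 lower between the treated groups. With that rule, 76.3% of all tested genes passed with LPS (16.2% higher and 60.1% lower). Between the treated groups 32.6% passed (14.5% higher and 18% lower). The median log2 fold change of the 29 genes was -0.25 with LPS and -0.17 between the treated groups, against -0.48 and -0.03 over all tested genes.

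The genes nearest in pattern to each receptor were found by distance. Likeness was measured as the root mean square distance between centred log2(TPM + 1) profiles over the 6 libraries. The genes nearest to Cxcr4 were Irf2bp2 (distance 0.25) and Foxo3 (0.36), with mean levels of 68.3, 1.6 and 9.51 TPM and of 68.9, 2.42 and 10.5 TPM in untreated, LPS and Met + LPS cells, and no gene lay within 0.25. Nearest to Ccrl2 were Gm13889 (0.21), at 0.242, 27.3 and 82.0 TPM, and Gem (0.33), and 1 gene lay within 0.25. The nearest genes to Ccr3 were D16Ertd472e (0.05) and 2210412B16Rik (0.07), to Ccr1 Pacsin3 (0.03), to Ccr2 Ptpro and Pcyox1 (0.04 each), to Cx3cr1 Ublcp1 (0.04) and Selenbp1 (0.05), and to Ccr7 5430430B14Rik and Vwf (0.15 each). Within 0.25 lay 136 genes for Ccr7, 255 for Ccr3, 934 for Ccr2, 999 for Ccr1 and 1494 for Cx3cr1. The distance is not scaled for the size of the changes, so these counts are not a measure of shared pattern alone. They did not follow the range of the values either. The log2 fold change largest in size was 1.05 for Ccr7 and -1.38 for Cx3cr1, with 136 and 1494 genes within 0.25.

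Because several of these receptors mark other leukocytes, markers of those cells were summed in each library. For Ccr3, the 8 other eosinophil, mast cell and basophil markers summed to 3.64 to 4.62 TPM in untreated cells, 1.85 to 2.17 TPM after LPS and 2.94 to 3.11 TPM after Met + LPS, with Epx, the eosinophil peroxidase gene, listed at 0 in 5 of 6 libraries and Fcer1a in all 6. Siglecf held 1.62 to 3.06 TPM of that sum, and the part of these cells in the result was not tested. For Ccr7, the 7 other dendritic cell markers summed to 21.1 to 23.9, 19.9 to 20.6 and 26.8 to 29.0 TPM in the same order. Itgax, which macrophages also express, held 17.4 to 26.1 TPM of these sums. Xcr1 stood at 0.0886 and 0.0313, 0.561 and 0.831, and 1.13 and 1.17 TPM in that order of groups. Zbtb46 stood at 0.108 and 0.164, 1.53 and 1.14, and 0.824 and 0.744 TPM. Siglech, Clec9a and Cd209a stayed at or below 0.743 TPM, and Flt3 at or below 0.107 TPM. Without Itgax, the other 6 summed to 1.02 and 1.41 TPM in untreated cells, 2.48 and 2.49 TPM after LPS, and 2.88 and 2.26 TPM after Met + LPS, so the order of the groups in the full sum came from Itgax, and the part of these cells in the result was not tested. For Ccr2 and Cx3cr1, the 4 other monocyte markers summed to 3.07 to 3.59, 2.92 to 3.71 and 3.71 to 4.22 TPM, of which Ly6c2 held 1.49 to 2.32 TPM, and the part of these cells in the result was not tested. For Cxcr4, which immature neutrophils also carry, the 9 neutrophil markers summed to 22.4 to 22.9, 11.3 to 16.9 and 23.0 to 23.8 TPM, mostly Elane, with Ly6g listed at 0 in 5 of 6 libraries. Without Elane, the other 8 summed to 7.12 and 5.49 TPM in untreated cells, 5.06 and 5.85 TPM after LPS, and 7.80 and 7.71 TPM after Met + LPS. The untreated and LPS libraries overlapped in this smaller sum, and the part of these cells in the result was not tested. B cell markers summed to at most 3.18 TPM, with Pax5 at or below 0.0155 TPM. Most of that sum was Cd79b, at 2.67 and 2.44, 1.38 and 1.34, and 0.462 and 0.711 TPM in the same order of groups. The T and NK cell markers summed to 1.16 to 1.17, 12.0 to 12.4 and 5.59 to 6.08 TPM, nearly all of it Lck, with Cd3g listed at 0 in all 6 libraries. Fibroblast and erythroid markers summed to at most 0.846 TPM.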

How the data were processed

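Polyadenylated RNA of 6 libraries was sequenced. Per the labels and the study's methods, the authors aligned reads with STAR 2.6.1d to GRCm38, handled them with SAMtools 1.9 and counted them per gene with featureCounts (Subread 1.6.3). The deposited values are TPM, 1 column per library. How the authors turned counts into TPM is not given in the sources used here, nor is a strand setting. They tested the counts themselves with a count model; since the deposited unit is TPM, limma 3.58.1 (R 4.3.3) was used here, on log2(TPM + 1) with a mean-variance trend. The fit held all 6 libraries and had 3 residual degrees of freedom. Genes needed 1 TPM in at least 2 libraries. With 2 libraries against 2, an exact permutation test cannot go below p = 0.333 (two-sided), so single values were not tested that way. Cut-offs followed the study's methods for LPS against untreated cells (adjusted p below 0.01, log2 fold change of 2) and for Met + LPS against LPS (0.7); the cut-off of 2 was also applied here to Met + LPS against untreated cells.

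Multiplied by exon length (GENCODE, GRCm38; 54495 of 54532 genes matched by ID), TPM gave whole reads within 0.05 for 96.2% to 96.6% of values per library, from which depth and Poisson intervals were taken. Deposited transcript lengths were not used; 8 rows had no symbol. Scripts were tested on simulated data.

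The members and gene lists were chosen with earlier results of these data known. Named genes were all members, the 4 largest called changes per list and comparison, the 2 genes nearest in pattern to each member, and the chemokine receptors on chromosome 9; this last replaced a planned interval between marker genes that does not hold these genes in the mouse. Some genes that these rules name are not reported here. Genes named beyond these (other ligands and markers) were chosen after their values were seen. Alternatives were other pseudocounts, filters, scalings, cut-offs, call rules and libraries, voom on recovered reads, and a replicate block.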

Additional observations from a re-analysis of the deposited data

How the results depend on the processing

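Of the members' log2 fold changes under the alternatives, 275 kept their direction and their side of the threshold, 7 newly passed it, 9 no longer did, and none reversed. With LPS, the count of 2 receptors became 6 with no fold cut-off and 4 with a cut-off of 1. From LPS to Met + LPS, the count of 4 became 7 with no fold cut-off, 6 with a pseudocount of 0.1 TPM or with voom, 3 with no filter, a minimum of 5 TPM or no trend, and 2 to 4 on leaving out 1 library each (2 without LPS replicate 2). Ccr7 could not be tested at the 5 TPM minimum. Between Met + LPS and untreated cells, the count of 2 became 5 with no fold cut-off, 4 with a cut-off of 1, 3 with a pseudocount of 0.1 TPM or voom, and 1 after median-ratio rescaling. Leaving a library out left 1 sample in its group, which is then assumed to vary like the others.

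Over all genes, LPS called 776 genes (474 higher, 302 lower), against 1512 with a pseudocount of 0.1 TPM (697 higher, 815 lower), 1595 with voom (718 higher, 877 lower) and 791 after rescaling (663 higher, 128 lower). Met + LPS against untreated cells called 682 (406 higher, 276 lower), against 1457, 1562 and 668 (573 higher, 95 lower). Libraries with the same replicate number share a letter, A or B, in their titles, and whether they were prepared together is not stated. Differences between replicates correlated at -0.00365, 0.0284 and 0.00624 between groups, which cannot decide this. With a replicate block, the counts of receptors were 2, 4 and 2 and those of genes 777, 1044 and 682. Depth limits Ccr7, with 15 to 54 reads, and to a lesser degree Ccr2, with 82 to 390.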
